A study of Mus musculus with 14 samples.

Results

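The Slc25 mitochondrial carrier family was described across 14 libraries of poly-A RNA from neural stem and progenitor cells (NSPCs) of adult C57BL/6 mice. Its members were taken by name: every protein-coding gene of the deposited annotation called Slc25a followed by a number, together with the uncoupling proteins Ucp1, Ucp2 and Ucp3. This gave 50 genes of the 53700 in the tables (21899 of them protein coding). The naming rule used no expression value, but it was chosen with earlier results of these data known. Quiescent cells were kept with BMP4 (4 libraries) and proliferating cells with FGF and EGF (4 libraries). In the second comparison, cells kept with FGF and EGF received an adeno-associated virus (AAV) that carried either GFP (the control, 3 libraries) or Cre-GFP (the Yme1l knockout, KO, 3 libraries). The labels call the mouse wild type in both virus groups and name no floxed allele and no promoter for Cre. They also do not say whether replicates were separate animals or cultures, so each p-value reflects the scatter among these libraries, and that scatter may be technical.

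Mitochondrial carriers are nuclear-encoded proteins, most of them in the inner mitochondrial membrane, that exchange nucleotides, phosphate, amino acids, carboxylates and cofactors between cytosol and matrix. They are made in the cytosol, cross the outer membrane through the TOM complex, and are guided by small TIM chaperones to the TIM22 complex, which inserts them. YME1L, the protease targeted in the second comparison, faces the intermembrane space and is known to degrade several mitochondrial proteins, among them the pyrimidine nucleotide carrier SLC25A33. All values here are transcript levels, and protein was not measured. In bulk RNA, fewer cells of a type and less RNA per cell cannot be told apart.

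Estimated counts summed to 6475099 to 8992709 per library in the quiescent comparison and to 9053124 to 10320736 in the KO comparison, of which the 50 carrier genes took 25691 to 38549 and 31210 to 35195. Yme1l1, the targeted gene, was at 135, 124 and 121 CPM (read counts scaled to a common, TMM-adjusted library size) in the control and at 25.7, 25.6 and 22.9 CPM in the KO libraries, which is 5.13-fold lower. KO replicate 3 stood apart from the other 2 KO libraries on the first principal component (42.29 against 21.63 and 19.14). Marker lists moved with both comparisons. All 5 proliferation markers (Mki67, Top2a, Cdk1, Ccnb1, Mcm6) were lower in quiescent cells and in KO cells. Their summed level was 417 to 445 CPM in proliferating and 65.6 to 85.8 CPM in quiescent libraries, and 1867 to 1911 CPM in control and 653 to 1026 CPM in KO libraries. Of 7 astrocyte markers, 5 rose and 1 fell in quiescent cells (2688 to 2811 CPM summed in proliferating, 3243 to 3612 CPM in quiescent libraries), and 4 of 6 tested rose in KO cells (1883 to 1905 CPM in control, 2173 to 2344 CPM in KO libraries). Among 7 stem and progenitor markers, 4 fell and 2 rose in quiescent cells, and 5 fell and 1 rose in KO cells. Oligodendrocyte markers summed to 959.9 to 1032 CPM in proliferating, 472 to 528 CPM in quiescent, 873 to 926 CPM in control and 1020 to 1079 CPM in KO libraries, most of it Olig2, while Mog had no counts in any library. The neuronal list summed to 50.3 to 107 CPM in the first pair of groups and 1166 to 1267 CPM in the second, most of it Map2, while Stmn2 had no counts. Of 6 microglial markers, Cx3cr1 and Ptprc had no counts, Tmem119 was the only one that passed the test, higher in quiescent cells, and the list summed to at most 6.47 CPM. Vessel and fibroblast markers summed to at most 18.4 CPM, with Cldn5 and Pdgfrb at no counts, Kdr higher and Acta2 lower in quiescent cells. The part of these shifts in the carrier results was not tested.

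Carrier transcripts made up 0.447% of all TPM (a unit corrected for transcript length) in proliferating cells and 0.447% in quiescent cells, 0.388% in control and 0.396% in KO cells. Slc25a5, which encodes the ADP/ATP carrier ANT2, was the most abundant member in every group, at 1294 ± 69.1 TPM in proliferating (SD, n = 4), 1033 ± 13.3 TPM in quiescent (n = 4), 1494 ± 34.5 TPM in control (n = 3) and 1390 ± 31 TPM in KO cells (n = 3). Slc25a5 alone held 28.9% of the family's TPM in proliferating and 23.1% in quiescent cells. The phosphate carrier gene Slc25a3 followed at 582 ± 28.2 TPM in proliferating and 674 ± 23.7 TPM in quiescent cells, then the glutathione carrier gene Slc25a39 at 504 ± 22.5 and 538 ± 30.5 TPM. Slc25a4, the ANT1 gene, was at 410.1 ± 14.5 and 499.6 ± 12.3 TPM, and the glutamate carrier gene Slc25a18 at 298 ± 2.81 and 284 ± 7.65 TPM. In the proliferating libraries the ranges of these 5 genes did not overlap. In the quiescent libraries those of Slc25a39 (493 to 559 TPM) and Slc25a4 (493 to 518 TPM) did.

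In the virus experiment Slc25a4 ranked above Slc25a3. Slc25a4 was at 509.5 ± 18.8 TPM in control and 624 ± 18.7 TPM in KO cells, and Slc25a3 at 489.7 ± 20.2 and 504 ± 6.91 TPM. Their ranges overlapped in the control libraries (489 to 526 and 467 to 504 TPM) and not in the KO libraries. Slc25a39 was at 303 ± 13.6 and 314 ± 12.4 TPM, and Slc25a18 at 128 ± 4.47 and 125 ± 3.66 TPM. The 5 most abundant members held 69% of the family's TPM in proliferating, 67.7% in quiescent, 75.4% in control and 74.8% in KO cells. A few genes carried most of the family's transcripts, and the median member was at 14.3, 12.9, 12.7 and 12.3 TPM. At a mean of 1 TPM or more, 42, 41, 39 and 37 members were detected.

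**Figure D1:**
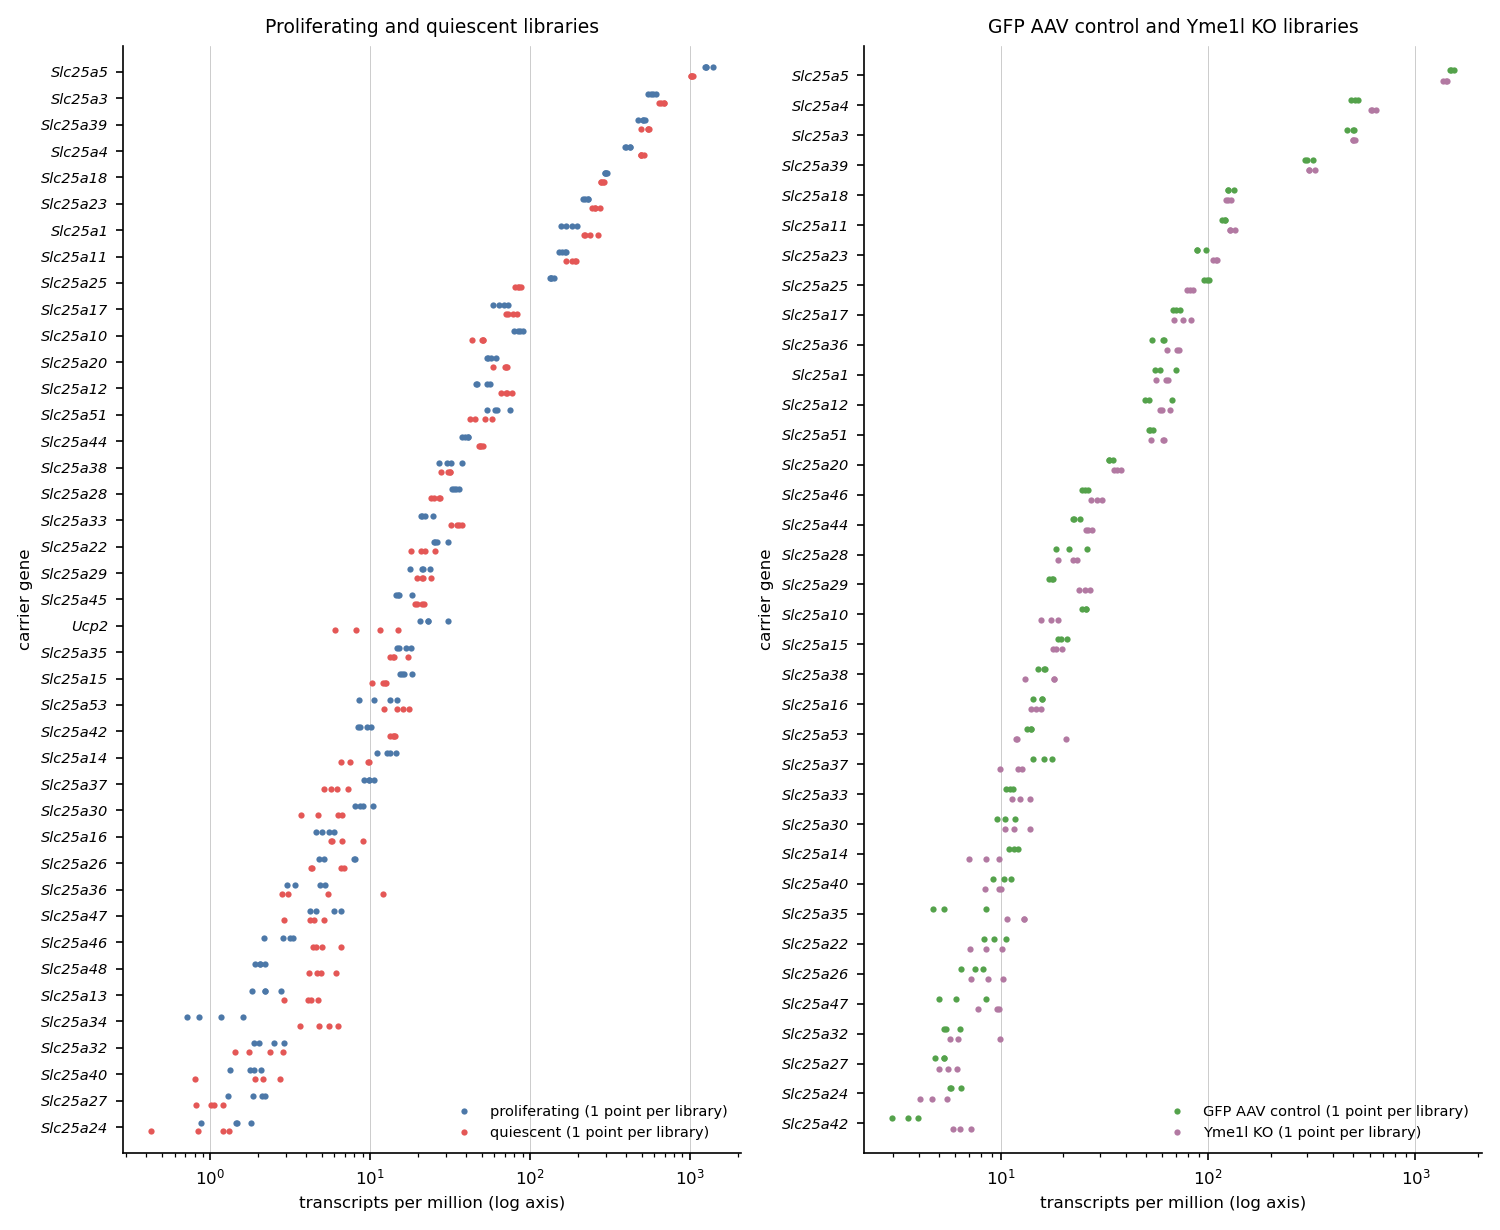
TPM (log axis) of the carrier genes reported by name with a mean of at least 1 TPM in each deposited table, 1 point per library, ordered by the mean level. Slc25a5 lies highest in each group, with means of 1033 to 1494 TPM, and Slc25a34, Slc25a48 and Ucp2 separate proliferating from quiescent libraries.

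In the quiescent comparison 42 of the 50 members had enough counts to be tested. Of these, 18 rose and 12 fell in quiescent cells at an adjusted p under 0.05 (edgeR quasi-likelihood test, adjusted over all 12245 genes tested), and 12 did not pass. Among all genes tested, 29.9% were higher, 35.5% lower and 65.4% called in either direction, against 71.4% of the tested members called, so the count of changed members lies near the background. The members' median log2 fold change was 0.10 against -0.01 for all genes. Only 3 members (Slc25a34, Slc25a48 and Ucp2) moved past 2-fold, while 20.7% of all genes did. The groups did not overlap for 23 of the 42, and for 59.6% of all genes tested.

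In the KO comparison 38 members were tested, of which 9 were higher and 3 lower, and 26 did not pass. The background was 25.4% higher, 26.2% lower and 51.6% in either direction over 12625 genes, against 23.7%, 7.89% and 31.6% of the tested members. Their median log2 fold change was 0.05 (0.00 for all genes), and Slc25a35 was the only member past 2-fold in edgeR, against 5.23% of all genes. The groups did not overlap for 20 of the 38, and for 61.4% of all genes tested.

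The 8 members tested in neither comparison were Slc25a2, Slc25a21, Slc25a31, Slc25a41, Slc25a43, Slc25a54, Ucp1 and Ucp3. None of them exceeded 5 counts in a library, and Slc25a54 had none. Ucp1, the uncoupling protein of brown fat, had 1 count in all 14 libraries together. Another 4 (Slc25a34, Slc25a45, Slc25a48, Ucp2) passed the filter on low counts only in the quiescent comparison.

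**Figure D2:**
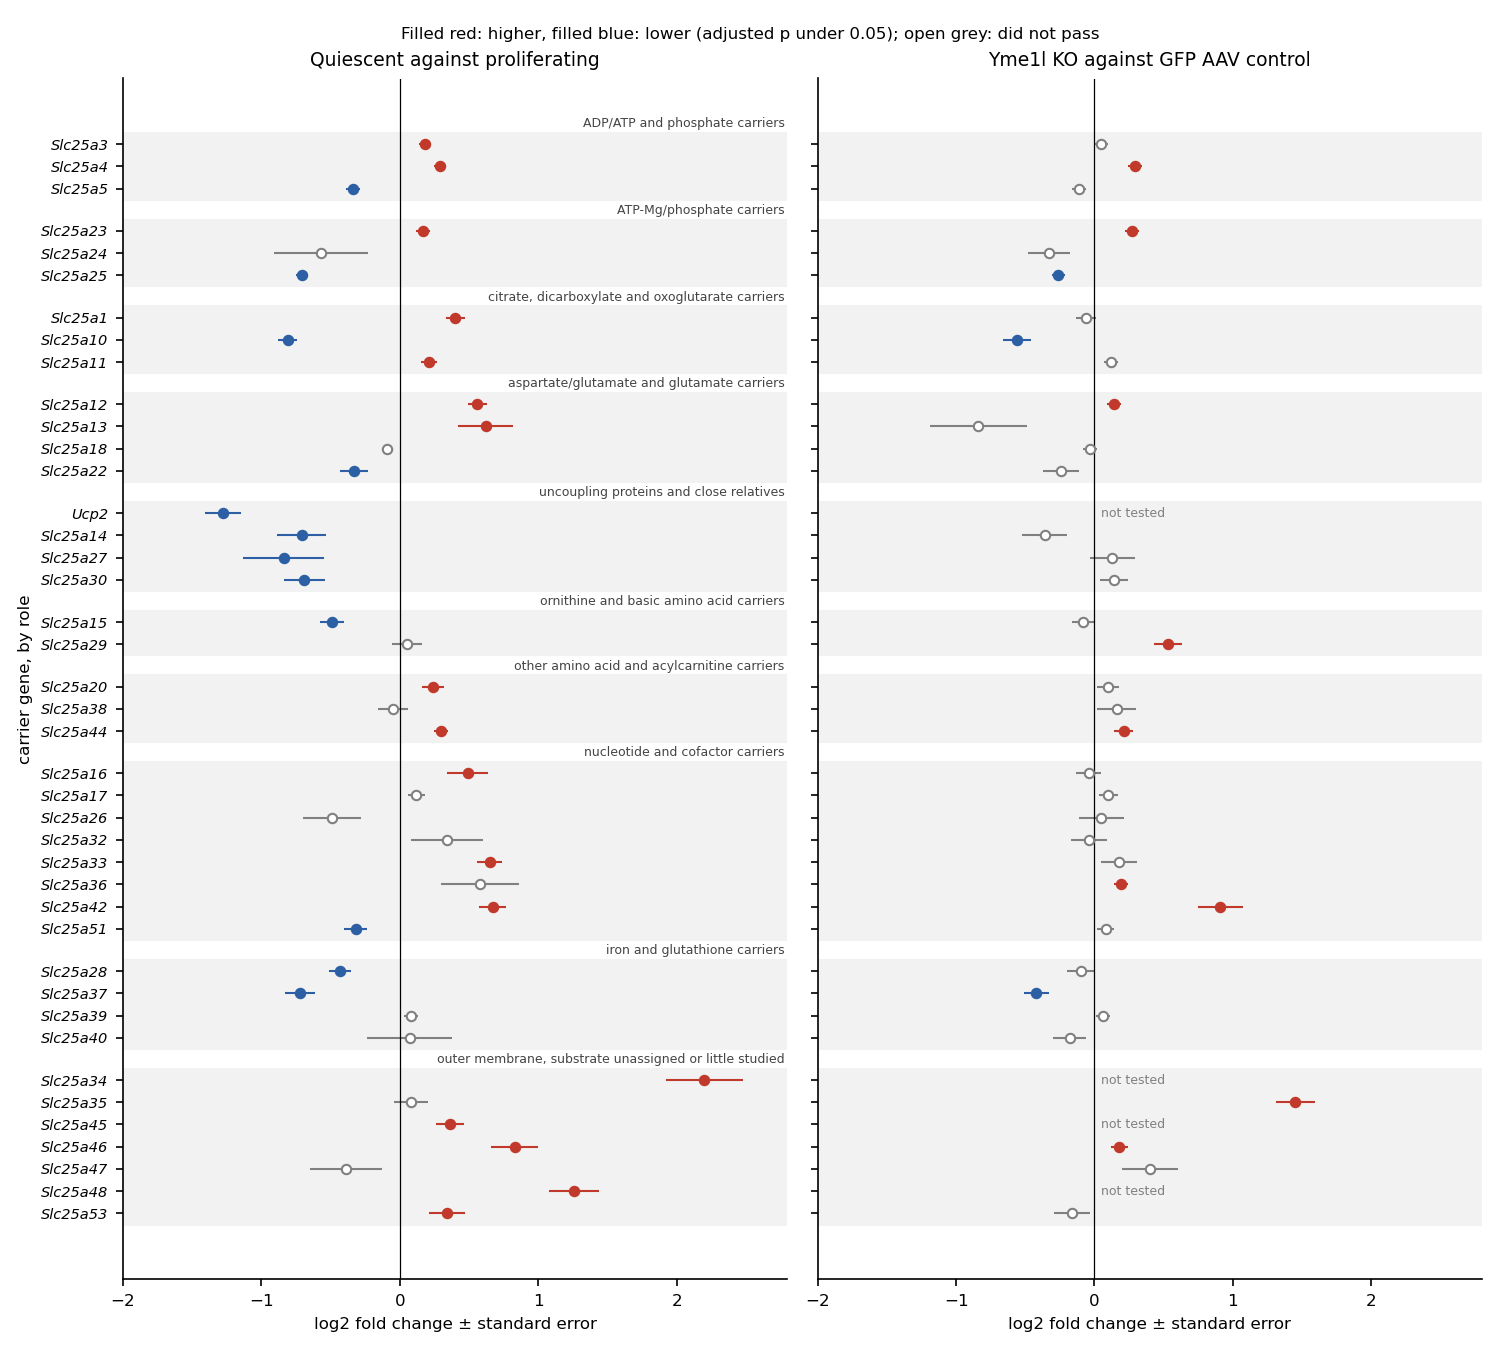
Log2 fold change ± standard error of the tested carrier genes that are reported by name, grouped by role, in quiescent against proliferating cells (left) and in Yme1l KO against GFP AAV control cells (right). All 4 tested uncoupling proteins and relatives lie to the left of zero in quiescent cells, and Slc25a35 lies farthest to the right in KO cells.

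ADP/ATP and phosphate carriers feed and drain ATP synthesis: the ANT proteins exchange ADP for ATP and Slc25a3 brings in phosphate. The ANT isoform genes moved in opposite directions in quiescent cells. Slc25a5 was at 794, 812, 797 and 889.9 CPM in proliferating and at 675, 620.1, 655 and 651 CPM in quiescent libraries, with no overlap, a log2 fold change of -0.34 (SE 0.05, adjusted p = 6.78e-06). Slc25a4 was at 376, 405, 380.2 and 403 CPM against 481, 486, 471 and 469 CPM, again with no overlap, a log2 fold change of 0.29 (SE 0.04, adjusted p = 1.36e-05). Every quiescent library thus had less of the ANT2 transcript and more of the ANT1 transcript than every proliferating library. The Slc25a5 to Slc25a4 ratio of TPM was 3.16 ± 0.12 (SD, n = 4) in proliferating and 2.07 ± 0.0706 in quiescent cells. Reads of Slc25a5 can be shared with its processed pseudogene Slc25a5-ps, and how the counting split them was not tested.

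In KO cells Slc25a4 rose by the same log2 amount, 0.29 (SE 0.05, adjusted p = 0.000121), from 487, 499 and 491 CPM to 584, 602 and 626 CPM. Slc25a5 went from 919, 885 and 876 CPM to 838, 841 and 810.1 CPM, without overlap, but its log2 difference of -0.11 (SE 0.05) missed the threshold (adjusted p = 0.0651). It passed without KO replicate 3 (adjusted p = 0.0132) and with library-size scaling alone (0.0196). The ratio of Slc25a5 to Slc25a4 was 2.94 ± 0.171 in control and 2.23 ± 0.114 in KO cells (SD, n = 3). Slc25a3 was higher in quiescent cells, at 480.1, 474, 466 and 519 CPM against 547, 525, 549.7 and 571 CPM (log2 fold change 0.18, SE 0.04, adjusted p = 0.0025). That call was lost with library-size scaling alone (0.04, adjusted p = 0.42) and with each library's GC trend removed (0.15, adjusted p = 0.0838). In KO cells Slc25a3 did not pass (0.05, SE 0.05).

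Calcium-regulated ATP-Mg/phosphate carriers change the matrix pool of adenine nucleotides. Slc25a25 fell in both comparisons. It was at 234, 237, 239.7 and 236 CPM in proliferating and at 146, 137, 145 and 148 CPM in quiescent libraries (log2 fold change -0.71, SE 0.04, adjusted p = 6.11e-10), and at 167, 163 and 161 CPM in control and 138, 138 and 133 CPM in KO libraries (-0.26, SE 0.05, adjusted p = 0.000399). The groups did not overlap in either comparison. Slc25a23, the more abundant relative, rose in quiescent cells from 379 ± 17.6 to 426 ± 21 CPM (0.17, SE 0.05) and in KO cells from 144 ± 0.834 to 174 ± 4.75 CPM (0.27, SE 0.05, adjusted p = 0.000247). Its quiescent call ended with library-size scaling alone (0.03, adjusted p = 0.538). Slc25a24 did not pass in either comparison (-0.57, SE 0.34, and -0.33, SE 0.15). Slc25a24 was lower in KO cells without KO replicate 1 (-0.46, adjusted p = 0.0301) or with library-size scaling alone (-0.37, 0.0468), and in quiescent cells with the GC trend removed (-0.78, 0.0484).

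Slc25a25 has several start sites, and the share of its transcripts differed in quiescent cells at an unadjusted threshold. Slc25a25-205 carried 73.1, 74.7, 72.1 and 75.4% of the gene's estimated counts in proliferating libraries and 68.9, 67.6, 55.9 and 63.2% in quiescent libraries. The groups did not overlap, and the difference of -9.94 percentage points had the smallest p that 4 against 4 libraries allow (two-sided exact permutation test, p = 0.0286). After adjustment over the 18 members tested it did not pass (0.514), and on transcript TPM the difference was -9.62 points (exact permutation p = 0.0571). A palindromic cyclic AMP response element, TGACGTCA, lay 150 bases before a RefSeq start that is within 100 bases of the start of Slc25a25-203, in the window (GRCm38.p6, chr2:32424067-32424316, minus strand, no exonic base). That window is shown because Slc25a25 was called in both comparisons. It is not the start of Slc25a25-205, and Slc25a25-203 held about the same share of counts in both groups. Printed 5′ to 3′ with the element in capitals, it reads as follows.
Slc25a25: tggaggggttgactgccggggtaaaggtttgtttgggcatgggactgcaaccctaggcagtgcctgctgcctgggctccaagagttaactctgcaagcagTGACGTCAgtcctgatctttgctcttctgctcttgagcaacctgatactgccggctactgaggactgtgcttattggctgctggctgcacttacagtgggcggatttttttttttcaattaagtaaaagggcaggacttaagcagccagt

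Carboxylate carriers link the citric acid cycle to the cytosol. Slc25a10, the dicarboxylate carrier gene, fell in both comparisons. It was at 93.9, 88.3, 98.5 and 93.5 CPM in proliferating and 57.4, 46.1, 55.7 and 55.5 CPM in quiescent libraries (log2 fold change -0.81, SE 0.07, adjusted p = 5.25e-08). In the virus groups it went from 25.4, 25.3 and 26.3 CPM to 17.1, 19.4 and 15.6 CPM (-0.56, SE 0.10, adjusted p = 0.000276). No library of one group reached the range of the other in either comparison. Slc25a1, the citrate carrier gene, rose in quiescent cells from 143 ± 12 to 189.9 ± 16.5 CPM (0.40, SE 0.07, adjusted p = 0.000179) and did not pass in KO cells (-0.06, SE 0.07). Slc25a11, which exchanges oxoglutarate for malate, rose in quiescent cells from 144 ± 5.19 to 167 ± 14.4 CPM (0.21, SE 0.06), a call lost with library-size scaling alone (0.07, adjusted p = 0.285). In KO cells its groups did not overlap (96.9 to 105 and 107 to 113 CPM), with a log2 difference of 0.12 that missed the threshold (adjusted p = 0.0788).

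Aspartate/glutamate carriers serve the malate-aspartate shuttle, and both genes were higher in quiescent cells. Slc25a12 was at 66.2, 78.2, 69.4 and 77.5 CPM in proliferating and 96.8, 109.9, 111 and 112 CPM in quiescent libraries (0.56, SE 0.07, adjusted p = 2.13e-06). The much rarer Slc25a13 was at 3.8, 3.2, 3.36 and 3.9 CPM against 5.66, 6.19, 5.04 and 5.02 CPM (0.62, SE 0.20, adjusted p = 0.0131). In KO cells Slc25a12 was at 88.5, 86.4 and 83.8 CPM in control and 92.6, 97 and 94.4 CPM in KO libraries, a log2 fold change of 0.14 (SE 0.05) at the edge of the threshold (adjusted p = 0.047). That call was lost under 10 of 15 alternatives, among them DESeq2 (0.157), limma (0.355) and leaving out control replicate 1 (0.071), 2 (0.117) or 3 (0.165) or KO replicate 1 (0.0734) or 2 (0.13). Slc25a13 was at 1.83, 2.25 and 1.82 CPM against 1.17, 1.51 and 0.566 CPM and did not pass (-0.84, SE 0.35, adjusted p = 0.0589), except without KO replicate 2 (-1.15, adjusted p = 0.0339). These Slc25a13 values rest on 5 to 21 counts per library. Most counts of Slc25a12 were assigned to Slc25a12-207, a transcript annotated as subject to nonsense-mediated decay. It held 64.8 ± 3.33% in proliferating, 60.3 ± 1.33% in quiescent, 56.3 ± 2.25% in control and 59.3 ± 2.26% in KO cells. The protein-coding Slc25a12-206 held 30, 35, 40 and 39% in the same groups. Of the glutamate carriers, Slc25a22 fell in quiescent cells (34.9 ± 3.26 to 27.8 ± 3.95 CPM, log2 fold change -0.33, SE 0.10), a call lost without quiescent replicate 2 (-0.20, adjusted p = 0.0953) or 3 (-0.22, adjusted p = 0.105) and with the GC trend removed (-0.18, adjusted p = 0.0868). Slc25a18 did not pass in either comparison (-0.09, SE 0.04, and -0.03, SE 0.05), except with library-size scaling alone in quiescent cells (-0.22, adjusted p = 5.77e-05).

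The E-box CACGTG, searched on both strands, lay in windows of 7 of the 39 members that could be matched, Slc25a1 and Slc25a13 among them. It was in 8 of 49 member windows (16.3%) and in 6.8% of the windows of 20477 protein-coding starts, each window holding the 250 bases before a start. Of the 8, 2 are the same site in overlapping windows of Slc25a14. Of the 7 members, Slc25a1, Slc25a13 and Slc25a33 rose in quiescent cells, Slc25a14 and Slc25a15 fell, Slc25a36 did not pass and Slc25a31 was not tested. Of the other motifs searched, the NRF1 motif was in 2 member windows (4.08% against 5.32% of all), TGACGTCA in 2 (4.08% against 1.95%) and CCGGAAGT, bound by GABP, in 1 (2.04% against 3.91%), while TGATGNAA (2.97% of all windows) and AAGATGGC (1.48%) were in no member window. These are matches of letters, with no binding measured. The windows of Slc25a1 (GRCm38.p6, chr16:17928220-17928469, minus strand) and Slc25a13 (chr6:6217174-6217423, minus strand) are printed as examples with the E-box, given in capitals at 239 and 125 bases before the start, with no exonic base.
Slc25a1: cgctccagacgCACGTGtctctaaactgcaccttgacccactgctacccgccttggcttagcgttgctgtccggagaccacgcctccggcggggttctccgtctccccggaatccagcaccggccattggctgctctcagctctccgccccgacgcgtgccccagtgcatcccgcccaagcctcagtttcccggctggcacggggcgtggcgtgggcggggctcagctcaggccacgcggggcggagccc
Slc25a13: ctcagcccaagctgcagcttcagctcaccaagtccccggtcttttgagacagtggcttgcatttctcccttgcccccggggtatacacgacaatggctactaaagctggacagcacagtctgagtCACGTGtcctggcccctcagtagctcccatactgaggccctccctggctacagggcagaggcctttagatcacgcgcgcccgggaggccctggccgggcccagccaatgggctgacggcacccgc

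Uncoupling proteins and their relatives let protons or small anions pass the inner membrane. All 4 tested members were lower in quiescent cells, where 35.5% of all genes were, with a median log2 fold change of -0.78. Ucp2 fell the most, from 18.1, 17.1, 18.7 and 16.2 CPM in proliferating to 6.63, 6.19, 7.81 and 8.37 CPM in quiescent libraries (log2 fold change -1.28, SE 0.13, adjusted p = 4.91e-07). No quiescent library reached the proliferating range. Slc25a14 fell from 9.58 ± 1.34 to 5.85 ± 1.18 CPM (-0.71, SE 0.18), Slc25a30 from 17.8 ± 1.07 to 10.9 ± 2.7 CPM (-0.69, SE 0.15), and Slc25a27 from 2.76 ± 0.592 to 1.54 ± 0.319 CPM (-0.84, SE 0.29). The call of Slc25a27, which rests on 8 to 30 counts per library, was lost without proliferating replicate 2 (adjusted p = 0.0593), quiescent replicate 1 (0.072) or quiescent replicate 2 (0.0827), and in DESeq2 (0.0837). In KO cells none of 3 tested members passed in edgeR, 1 (Slc25a14) had an unadjusted p under 0.05, DESeq2 called none and limma called 1. Slc25a14 was at 7.89 ± 0.737 CPM in control and 6.12 ± 0.893 CPM in KO cells (-0.36, SE 0.16, adjusted p = 0.0794), and passed without KO replicate 2 (-0.47, adjusted p = 0.0495) and in limma (-0.42, 0.036). Ucp2 was near its detection limit there, with 16 counts over 3 control and 6 over 3 KO libraries, and was not tested.

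Among carriers of ornithine and other basic amino acids, each comparison called a different gene. The ornithine carrier gene Slc25a15 fell in quiescent cells from 32.4 ± 2.52 to 23 ± 1.78 CPM (-0.49, SE 0.09, adjusted p = 0.000178), and did not pass in KO cells (-0.08, SE 0.08). Slc25a29, a carrier of basic amino acids, rose in KO cells from 17.3, 16.9 and 16.3 CPM to 22.6, 24 and 26.3 CPM (0.53, SE 0.10, adjusted p = 0.000397) and did not pass in quiescent cells (0.05, SE 0.11). Whether the effects differ between the comparisons was not tested. The branched-chain amino acid carrier gene Slc25a44 rose in both, from 81.5, 80.5, 84.2 and 76.4 CPM to 101, 95.8, 97.3 and 103 CPM in quiescent libraries (0.30, SE 0.05, adjusted p = 0.000129), and from 42.8, 43.1 and 45.4 CPM to 49.2, 50.3 and 52.4 CPM in KO libraries (0.21, SE 0.07, adjusted p = 0.0175). The KO call of Slc25a44 was lost without control replicate 1 (adjusted p = 0.0682) or 2 (0.0664), in DESeq2 (0.0692) and in limma (0.0729). Slc25a20, the carnitine/acylcarnitine carrier gene, rose in quiescent cells from 54.8 ± 3.26 to 65.1 ± 7.37 CPM (0.24, SE 0.08), where quiescent replicate 2 at 54.2 CPM lay inside the proliferating range. The call was lost with library-size scaling alone (0.10, adjusted p = 0.243). The glycine carrier gene Slc25a38 did not pass in either comparison.

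Nucleotide and cofactor carriers were, with 9 members tested, the most numerous role, and 4 rose (44.4%) and 1 fell (11.1%) in quiescent cells. Among all genes tested 29.9% were higher and 35.5% lower. Slc25a33, which imports pyrimidine nucleotides, was at 22.2, 22.1, 21.7 and 25.5 CPM in proliferating and at 39.6, 34.7, 32.5 and 37.1 CPM in quiescent libraries (log2 fold change 0.65, SE 0.09, adjusted p = 9.4e-06). In KO cells its transcript was at 11.1, 10.3 and 10.6 CPM in control and 13.3, 11 and 12 CPM in KO libraries, which overlapped (0.18, SE 0.13, adjusted p = 0.254). It passed under none of 15 alternatives, in which the log2 difference was between 0.10 and 0.24. Its relative Slc25a36 gave 10.3, 5.74, 8.14 and 6.08 CPM against 8.41, 18, 10.1 and 8.51 CPM, with quiescent replicate 2 above all others, and did not pass (0.58, SE 0.28, adjusted p = 0.088). Slc25a36 did pass with proliferating replicate 1, quiescent replicate 1 or quiescent replicate 4 left out (adjusted p = 0.0326, 0.0345 and 0.0302), in DESeq2 (0.033) and with no filter on low counts (0.00308). In KO cells Slc25a36 rose from 93.5, 97.8 and 95.9 CPM to 113, 105 and 109 CPM (0.19, SE 0.05, adjusted p = 0.00736), a call that limma did not make (0.056).

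Slc25a42, which carries coenzyme A, rose in both comparisons. It was at 14.3, 15.5, 17 and 14.8 CPM in proliferating and 26.2, 24.2, 23.1 and 25 CPM in quiescent libraries (0.67, SE 0.10, adjusted p = 1.93e-05), and at 4.78, 5.79 and 5.84 CPM in control and 9.35, 9.57 and 12.1 CPM in KO libraries (0.91, SE 0.16, adjusted p = 0.000322). In both cases the lowest library of the higher group stood above the highest of the other. The folate and FAD carrier gene Slc25a32 did not pass in either, at 2.32, 1.66, 2.6 and 2.18 CPM against 2.75, 2.92, 3.09 and 2.37 CPM in quiescent libraries (0.34, SE 0.26), and at 16.4, 14.3 and 14.5 CPM against 17.5, 12.8 and 13.6 CPM in KO libraries (-0.04, SE 0.13). Slc25a16 rose in quiescent cells (0.49, SE 0.15, adjusted p = 0.00765), a call that limma did not make (0.131). Slc25a51, the NAD carrier gene, fell in quiescent cells from 100.2, 100.2, 92.9 and 96 CPM to 68.2, 92.5, 76.8 and 73.8 CPM (-0.32, SE 0.08, adjusted p = 0.00247). Slc25a17, which serves peroxisomes, and Slc25a26, the S-adenosylmethionine carrier gene, did not pass in quiescent cells (0.12, SE 0.06, and -0.49, SE 0.21). Slc25a17 was higher without quiescent replicate 1 (adjusted p = 0.0278) or 2 (0.0148), with RLE size factors (0.0432) and in limma (0.0434). Slc25a26 was lower without proliferating replicate 1 (adjusted p = 0.039) or 4 (0.0336) and with library-size scaling alone (0.0166).

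Mitoferrins bring iron into the matrix for heme and iron-sulfur clusters, and both of their genes were lower in quiescent cells. Slc25a37 (mitoferrin 1) was at 28.8, 29.4, 29.8 and 31.6 CPM in proliferating and 15.5, 21.3, 19.4 and 15.9 CPM in quiescent libraries (-0.72, SE 0.11, adjusted p = 2.1e-05). It also fell in KO cells, from 46.9, 51.3 and 43.1 CPM to 35, 37.9 and 32.2 CPM (-0.42, SE 0.09, adjusted p = 0.000848). Slc25a28 (mitoferrin 2) went from 31.5, 32.6, 32.7 and 34.2 CPM to 25.9, 23.8, 24.4 and 22.9 CPM in quiescent libraries (-0.43, SE 0.08, adjusted p = 0.000171), and in KO libraries from 24.1, 20.7 and 25.5 CPM to 22.1, 21.7 and 21.7 CPM, which overlapped (-0.10, SE 0.10). Much of the count of both genes was assigned to transcripts annotated as retained introns: Slc25a37-203 held 69.7 ± 8.35% of the gene's counts in proliferating and 84.1 ± 2.86% in control cells, and Slc25a28-202 held 44.7 ± 5.07% and 59.5 ± 3.67%. Of the glutathione carrier genes, Slc25a39 was at 417, 396, 438 and 408 CPM in proliferating and 461, 408, 433 and 454 CPM in quiescent libraries and did not pass (0.08, SE 0.05, adjusted p = 0.152). It was higher without quiescent replicate 2 (0.20, adjusted p = 0.000173), with the GC trend removed (0.24, 4.68e-06), with RLE size factors (0.13, 0.0498) and in DESeq2 (0.13, 0.0309). In KO cells Slc25a39 went from 224, 229 and 222 CPM to 233, 233 and 236 CPM (0.06, SE 0.05). Slc25a40 was at 3.06, 3.2, 2.06 and 2.75 CPM against 1.29, 3.97, 2.93 and 3.21 CPM (0.07, SE 0.31), and at 16, 16.5 and 14.1 CPM against 15.2, 12.4 and 13.6 CPM (-0.18, SE 0.12), with overlap in both.

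Carriers that are little studied or have no settled substrate included the member with the largest log2 fold change in each comparison, Slc25a34 in quiescent and Slc25a35 in KO cells. Slc25a34 was at 1.27, 1.77, 1.08 and 2.41 CPM in proliferating and 9.7, 6.89, 8.14 and 5.44 CPM in quiescent libraries, 4.59-fold higher (log2 fold change 2.20, SE 0.28, adjusted p = 4.38e-06). On the log2(TPM + 1) scale, which compresses low values, the difference was 1.54. Slc25a48, reported as a choline carrier gene, was at 3.9, 3.97, 3.69 and 4.25 CPM against 8.24, 9.11, 8.79 and 11.9 CPM, 2.4-fold higher (1.26, SE 0.18, adjusted p = 1.82e-05). Both genes were low throughout, with at most 85 counts in a library, and no library of one group reached the other. In the virus groups they had few counts and were not tested: Slc25a34 had 15 counts in control and 27 in KO libraries, and Slc25a48 had 21 in each group.

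Slc25a35 was at 5.5, 6.22 and 5.65 CPM in control and 15.9, 14.1 and 17.4 CPM in KO libraries, 2.73-fold higher (1.45, SE 0.14, adjusted p = 2.6e-06). The rise was smaller in TPM, at 6.15 ± 2.02 in control and 12.2 ± 1.29 in KO cells (SD, n = 3), and 0.91 on the log2(TPM + 1) scale. The authors' deposited log2 fold change was 0.88. In quiescent cells Slc25a35 did not pass (0.08, SE 0.12), at 13.7, 14.6, 17.7 and 17.4 CPM against 16.5, 17.9, 14.8 and 17.6 CPM. Slc25a35 overlaps Rangrf on the opposite strand by 1882 bases, and Rangrf was at 13.2 CPM in control and 11 CPM in KO libraries. Slc25a46, an outer membrane member that acts in mitochondrial dynamics, rose in quiescent cells from 8.22, 5.52, 8.03 and 7.23 CPM to 11.5, 15.9, 11.4 and 12.6 CPM (0.83, SE 0.17, adjusted p = 0.000444), and in KO cells from 60.6, 62.3 and 58.4 CPM to 71.6, 64.5 and 69.2 CPM (0.18, SE 0.06, adjusted p = 0.0276). The KO call of Slc25a46 was lost without control replicate 1 (adjusted p = 0.0737) or 3 (0.11) or KO replicate 1 (0.125), with library-size scaling alone (0.0701), in DESeq2 (0.0898) and in limma (0.105). Slc25a45 and Slc25a53 rose in quiescent cells (0.36, SE 0.10, and 0.34, SE 0.13), with Slc25a45 lost under library-size scaling alone (adjusted p = 0.062). Slc25a53 was lost without proliferating replicate 1 (0.0609), 2 (0.0988) or 4 (0.0869), with library-size scaling alone (0.21), with the GC trend removed (0.151) and in limma (0.102). Slc25a47 did not pass in either comparison. Slc25a53 was lower in KO cells only without KO replicate 3 (-0.29, adjusted p = 0.043). It overlaps Zcchc18 on the opposite strand by 5318 bases, and that gene was at 13.1 CPM in proliferating and 36.7 CPM in quiescent cells.

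**Figure D3:**
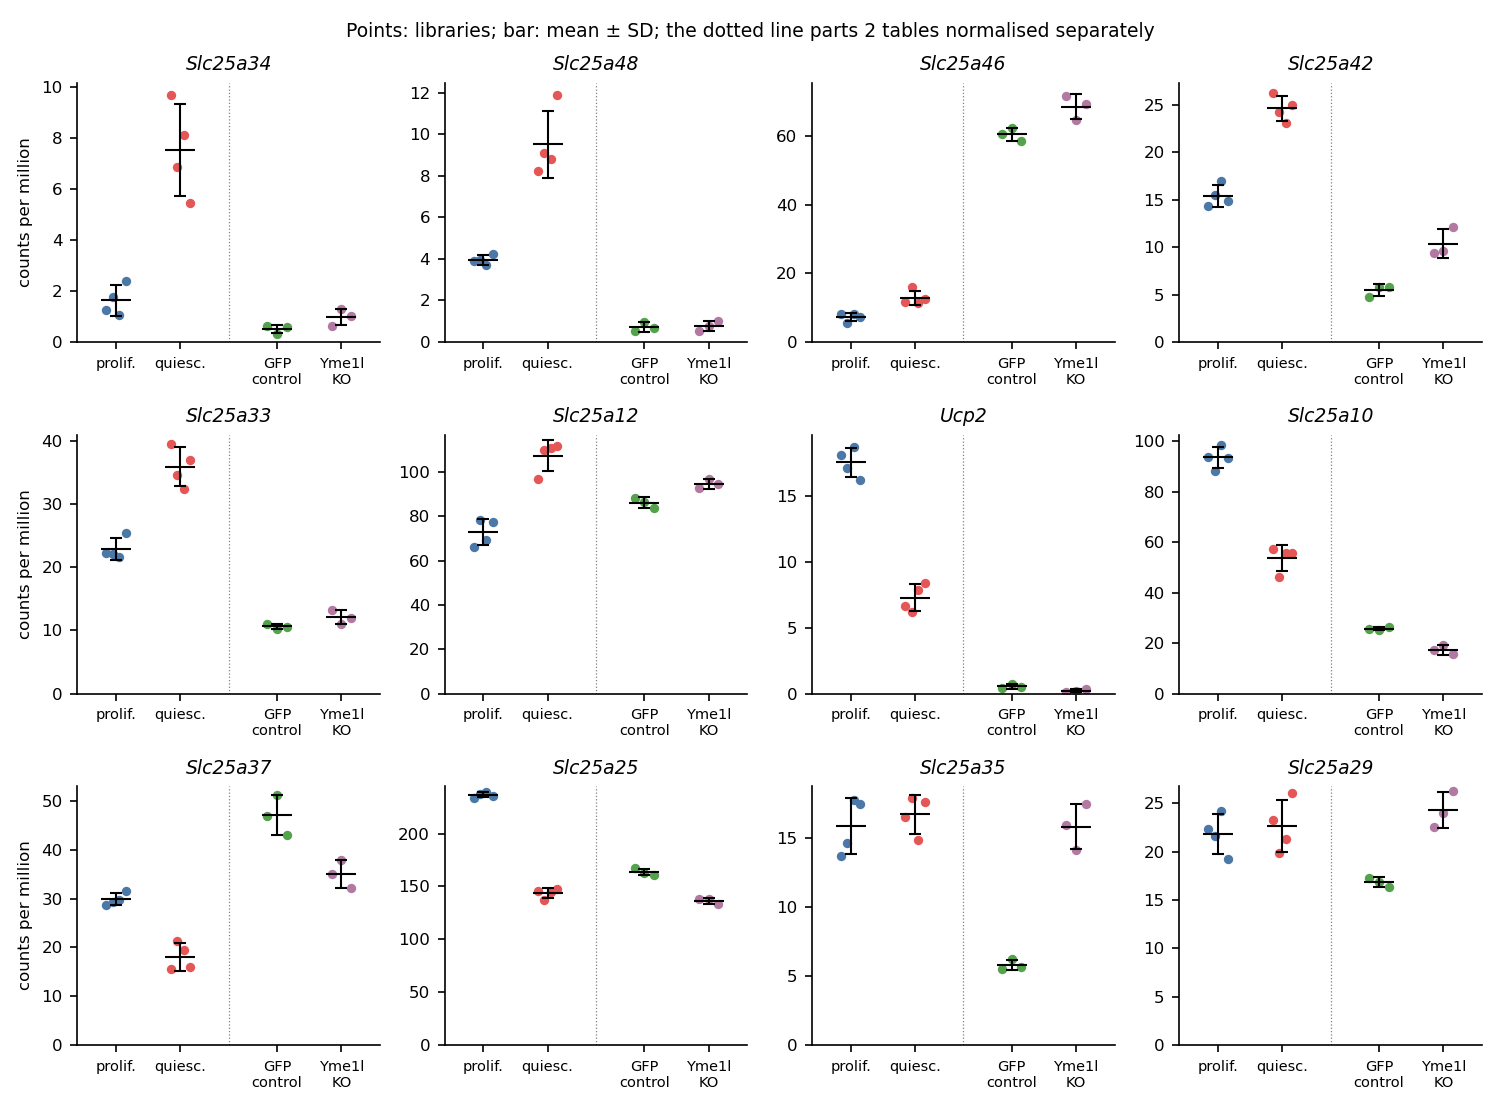
CPM of 12 carrier genes in each of the 14 libraries (points) with mean ± SD (bars), for proliferating and quiescent cells left of the dotted line and GFP AAV control and Yme1l KO cells right of it, with each axis starting at 0. Slc25a42, Slc25a46 and Slc25a12 are higher, and Slc25a10, Slc25a37 and Slc25a25 lower, in both comparisons without overlap. Slc25a35 and Slc25a29 separate control from KO libraries and overlap between proliferating and quiescent ones.

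Of the members tested in both comparisons, 6 were higher in both (Slc25a4, Slc25a12, Slc25a23, Slc25a42, Slc25a44, Slc25a46) and 3 lower in both (Slc25a10, Slc25a25, Slc25a37). No member passed in opposite directions in edgeR. The KO calls of Slc25a12, Slc25a44 and Slc25a46 were lost in DESeq2 and in limma. How often all genes were called alike in both comparisons was not computed. The log2 fold changes had the same sign for 25 of the 38 members and for 7875 of the 11477 genes tested in both. The comparisons share no library. Another 9 were higher and 8 lower in quiescent cells without passing in KO cells, 3 rose in KO cells without passing in quiescent cells (Slc25a29, Slc25a35, Slc25a36), and 9 passed in neither. Across the 38 members the log2 fold changes of the comparisons correlated with r = 0.30 (rho 0.38), and across 11477 genes with r = 0.49 (rho 0.50), both descriptions across genes, which are not independent. The authors' deposited table gave 16 members as higher and 10 as lower in quiescent cells, and 6 as higher and 3 as lower in KO cells, at its adjusted p under 0.05. In the same direction as here were 25 members of the first comparison and 9 of the second.

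Transcript shares of single members could be tested for 15 members in the KO comparison, where 3 against 3 libraries cannot give a p under 0.1. None passed, and 4 had shares that did not overlap between the groups, named here after their values were seen. For a single share, shuffled group labels give such a separation with a probability of 0.1. How often it occurred among the transcripts of all genes was not computed. Slc25a40-202 held 27.5, 5.39 and 13.8% of its gene's counts in control and 41.1, 64.9 and 45.2% in KO libraries. Slc25a32-201 held 88.9, 96.5 and 94.4% against 81.2, 82.1 and 80.1%. Slc25a35-201 held 50.4, 46.6 and 42.4% against 60.9, 55.1 and 58.5%, and Slc25a22-203 held 62.9, 45 and 44.7% against 63.5, 87 and 95.2%. Each of these 4 had a two-sided exact permutation p of 0.1 and an adjusted p of 0.375. On transcript TPM the p was 0.1 for the first 3 and 0.2 for Slc25a22-203. Estimated counts of transcripts that share exons carry an assignment error that these shares do not show.

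Of 12 genes of the import route of carriers, on a list chosen with earlier results known, 8 fell in quiescent cells and 8 in KO cells, with median log2 fold changes of -0.37 and -0.29. Among all genes tested 35.5% and 26.2% were lower, with medians of -0.01 and 0.00. None rose in either by edgeR, DESeq2 or limma, and none had an unadjusted p under 0.05 in that direction. In quiescent cells 1 passed as higher without quiescent replicate 1 or 3 and 2 without quiescent replicate 2. Of the small TIM chaperones, Timm8a1 was at 19.5 CPM in proliferating and 8.34 CPM in quiescent cells (-1.22, SE 0.15) and at 37.5 and 25.1 CPM in control and KO cells (-0.58, SE 0.12). Timm10 went from 30.2 to 15.9 CPM (-0.94, SE 0.10) and from 21 to 12.8 CPM (-0.72, SE 0.11), Timm10b from 61.4 to 39.3 CPM (-0.65, SE 0.07), and Timm9 from 11.3 to 7.34 CPM (-0.61, SE 0.19) and from 25.1 to 17.8 CPM (-0.49, SE 0.12). Tomm70a, the receptor for carrier precursors, fell in KO cells from 208 to 146 CPM (-0.52, SE 0.07). Timm22, the channel itself, did not pass in either (0.02, SE 0.09, and -0.15, SE 0.09). The proliferation markers given above fell in the same comparisons.

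**Figure D4:**
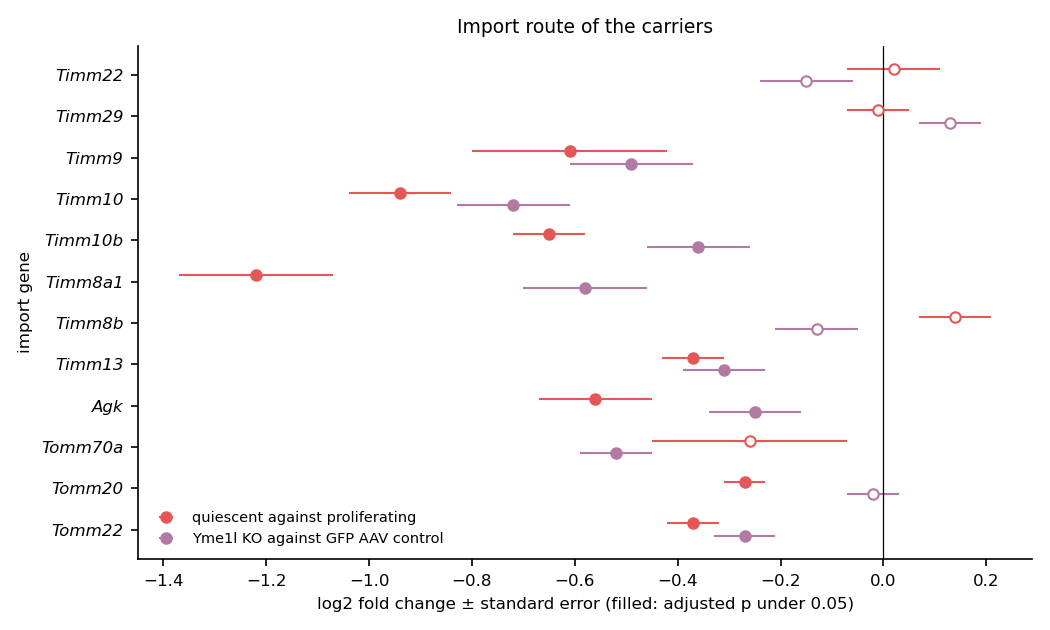
Log2 fold change ± standard error of 12 genes of the carrier import route in quiescent against proliferating cells (red) and Yme1l KO against control cells (purple), filled where the adjusted p was under 0.05. The small chaperone genes Timm8a1, Timm10, Timm10b, Timm9 and Timm13 lie left of zero in both comparisons, and Timm22, Timm29 and Timm8b are open in both.

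Other mitochondrial membrane transporters moved both ways, with 11 of 24 tested higher and 9 lower in quiescent cells and 5 higher and 4 lower in KO cells. That is 83.3% and 37.5% called, against 65.4% and 51.6% of all genes, and the list's medians were 0.17 and 0.01. The list was chosen with earlier results known, so these shares are no test against that background. Mtch1, a divergent relative of the carriers in the outer membrane, had the largest rise, from 330.1 to 1623 CPM in quiescent cells (2.30, SE 0.05, adjusted p = 3.09e-15), with no change passing in KO cells (0.02, SE 0.05). The mitochondrial sodium/calcium exchanger gene Slc8b1 rose in both, from 8.36 to 34.7 CPM (2.05, SE 0.10) and from 3.74 to 7.91 CPM (1.07, SE 0.28). Of the sideroflexins, Sfxn2 fell in quiescent cells (-1.09, SE 0.28), Sfxn4 rose in KO cells (0.53, SE 0.20), and the serine transporter gene Sfxn1 fell in both (-0.85, SE 0.07, and -0.45, SE 0.06). Ghitm rose in KO cells from 303 to 432 CPM (0.51, SE 0.06), and the ABC transporter gene Abcb6 fell in quiescent cells from 78.4 to 42.4 CPM (-0.89, SE 0.06) and in KO cells (-0.35, SE 0.07).

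Of 33 tested enzymes that use or supply carrier substrates, 11 rose and 16 fell in quiescent cells, while 9 rose and 13 fell in KO cells (8 lower without control replicate 1). That is 81.8% and 66.7% called, against 65.4% and 51.6% of all genes, with list medians of -0.10 and -0.02. This list, too, was chosen with earlier results known, so its shares are no test against that background. The one-carbon enzyme gene Mthfd1l went from 69.4 to 12.9 CPM in quiescent cells (-2.43, SE 0.08), and Mthfd2 from 34 to 10.7 CPM (-1.66, SE 0.11). In KO cells Shmt2 fell from 254 to 124 CPM (-1.03, SE 0.13), Mthfd2 from 106 to 54.6 CPM (-0.95, SE 0.15) and Mthfd1l from 103 to 57.3 CPM (-0.84, SE 0.13). Slc25a32, which carries folate to these matrix enzymes, did not pass in either comparison. Cytosolic Gpd1 fell in quiescent cells from 1011 to 329.9 CPM (-1.62, SE 0.05) and rose in KO cells from 60.7 to 85.3 CPM (0.49, SE 0.07). Gsr, glutathione reductase, fell in quiescent cells from 80.5 to 26.5 CPM (-1.61, SE 0.07). Cpt1c rose in KO cells from 42.7 to 84.3 CPM (0.98, SE 0.12).

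Levels in the separately quantified tables differed with base composition. Proliferating cells and GFP AAV control cells were both kept with FGF and EGF, yet Slc25a36 was at 4.15 TPM in the first and 58.5 TPM in the second, Slc25a46 at 2.87 and 25.4 TPM, and Slc25a40 at 1.77 and 10.2 TPM. In the other direction, Ucp2 was at 24.3 and 1.1 TPM and Slc25a45 at 15.7 and 0.701 TPM. The GC content of the transcripts was 39.3% for Slc25a36, 42.5% for Slc25a46 and 38.9% for Slc25a40, and 55.2% for Ucp2 and 53.9% for Slc25a45. The ratios of Ucp2 (22.1-fold) and Slc25a45 (22.4-fold) exceeded those of members with like GC content. Among these were Slc25a48 (54.2%, 5.22-fold), Slc25a25 (53.8%, 1.39-fold) and Slc25a11 (55.5%, 1.35-fold). The cause of the larger ratios was not tested. Across the 39 members at 1 TPM or more in both groups, the log2 ratio of proliferating to control cells correlated with GC content at r = 0.74 (rho 0.70), and across 11372 genes at r = 0.67 (rho 0.73). The points share their libraries, and levels were not tested across tables. Within the tables, the members' log2 fold changes correlated with GC content at r = -0.01 over 42 members in quiescent cells and r = 0.23 over 38 in KO cells. Over all genes tested with a known GC content, r was -0.11 (rho -0.18, 12230 genes) in quiescent and 0.11 (rho 0.12, 12607 genes) in KO cells.

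**Figure D5:**
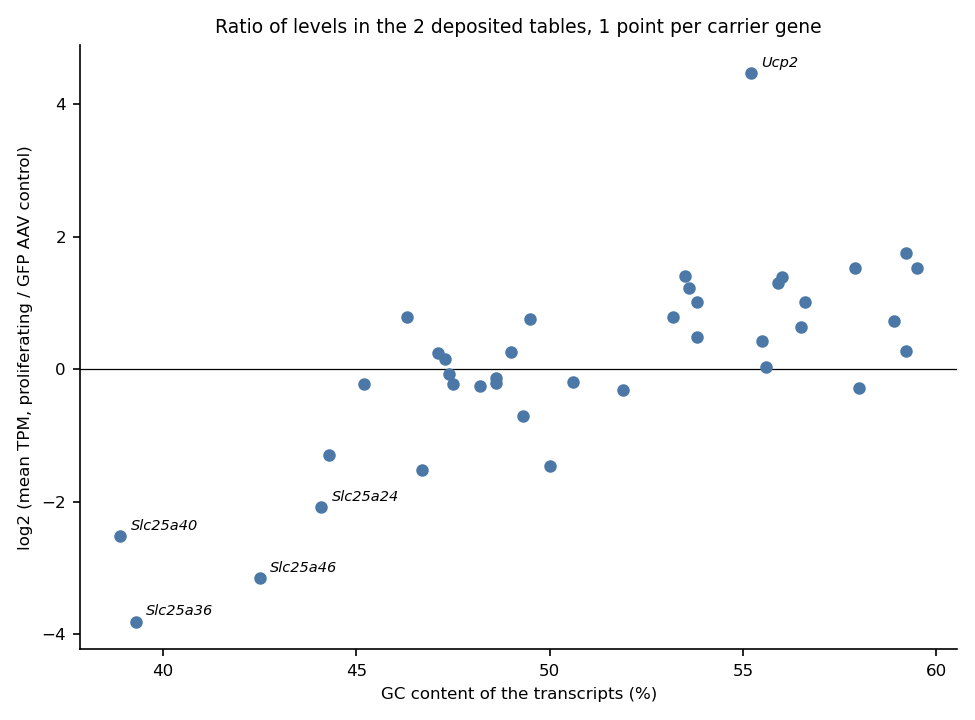
Log2 ratio of mean TPM in proliferating cells to that in GFP AAV control cells (vertical) against the GC content of the transcripts in percent (horizontal), 1 point for each of the 39 carrier genes at 1 TPM or more in both groups, with those past a 4-fold ratio named. Slc25a36, Slc25a46 and Slc25a40 at low GC content lie lowest, and Ucp2 lies highest.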

How the data were processed

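The authors quantified each library with salmon, as the names of the deposited tables say, and deposited estimated counts, length-scaled estimated counts and TPM per gene and per transcript in 1 table per comparison. GRCm39 is the build in the submitters' processing notes, which also name R 4.0.3 and DESeq2 1.30.1. The salmon version and annotation release are not given in the sources used here. The authors' deposited test tables hold log2 fold changes and adjusted p-values, used only where named. Libraries were stranded and poly-A selected, per the labels' protocols.

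Estimated counts were rounded and tested separately in each table with edgeR 4.0.16 (R 4.3.3, TMM, filterByExpr, robust quasi-likelihood fit), with Benjamini-Hochberg adjustment over all genes tested and a threshold of 0.05. Standard errors were obtained from the F statistic of each fit. DESeq2 1.42.0, limma 3.58.1 on log2(TPM + 1) and the settings named in the closing section were alternatives, and the edgeR script was tested on simulated data. The labels put each sample in its group and give the replicate numbers. Columns were matched to samples through the numbers in the deposited sample sheet. The members were taken by gene name alone, but this naming rule and the lists were chosen with earlier results of these data known. Members given with every library were the 6 called with the largest change per comparison at 5 CPM or more, the 5 most abundant, the 6 called in both with the largest smaller change, and Slc25a33, Slc25a36, Slc25a32, Ucp2 and 4 pairs by role. From other lists up to 4 called genes per comparison were named. Transcript shares were tested for members with at least 2 transcripts at 10% or more and a mean of 5 CPM or more. Promoter sequences are RefSeq's (GRCm38.p6), matched by symbol for 39 of 50 members. Exonic bases came from the GENCODE M21 annotation of the same build, and GC content from its transcripts by gene ID, so no GRCm39 coordinate was mixed with these. Reads carry no molecular identifiers. The values of 1 member are not reported here, though the counts of members include it.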

Additional observations from a re-analysis of the deposited data

Results flagged for a closer look

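In groups of 4 libraries, a library was marked where its gap to the nearest other library took up most of the group's range (Dixon's 95% critical value), which chance does in about 1 in 20 groups. Of 84 groups (42 members in 2 groups), 4 were marked. Slc25a33 was at 25.5 CPM in proliferating replicate 5, against 21.7 to 22.2 CPM in the other 3 proliferating libraries and 32.5 CPM in the lowest quiescent library. Slc25a10 was at 46.1 CPM in quiescent replicate 2, against 55.5 to 57.4 CPM, and Slc25a20 at 54.2 CPM in the same library, against 67.4 to 69.5 CPM. Slc25a12 was at 96.8 CPM in quiescent replicate 1, against 109.9 to 112 CPM. The calls of all 4 genes in quiescent cells held with each library left out in turn.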

How the results depend on the processing

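Of the 30 calls in quiescent cells, 18 held under all 17 alternatives, 12 were lost under at least 1 and none reversed. Of the 12 calls in KO cells, 8 held under all 15 alternatives, 4 were lost under at least 1 and none reversed. Library-size scaling alone, which moved the median of all genes to -0.15 in quiescent cells, called 11 members higher in place of 18, 7 other transporters higher in place of 11, and, in KO cells, 5 members lower in place of 3. With limma on log2(TPM + 1), 5 members were higher in KO cells in place of 9. Correlations of same-numbered libraries' deviations from their group means were -0.16, -0.317 and -0.00887 in the first comparison and 0.00419, -0.0689 and -0.0127 in the second. The highest in the first comparison was 0.432, for proliferating replicate 1 with quiescent replicate 2. So few libraries cannot decide whether the replicate numbers pair the samples. With a replicate block, 11 members rose and 9 fell in quiescent cells, and 8 rose and 3 fell in KO cells. Quiescent calls lost with the block included Slc25a13 (adjusted p = 0.0704), Slc25a14 (0.0593), Slc25a16 (0.0541), Slc25a20 (0.17), Slc25a23 (0.0636) and Slc25a45 (0.0692). RLE size factors and removal of each library's GC trend (added after seeing the data) each called 1 import gene higher in quiescent cells in place of 0. Leaving out 1 library gave 16 to 20 members higher and 10 to 13 lower in quiescent cells, and 6 to 9 higher and 3 to 5 lower in KO cells. It gave 0 to 2 import genes higher in quiescent cells and 8 to 14 partner enzymes lower in KO cells, where the 8 came without control replicate 1. The KO count of 5 lower came without KO replicate 2 (Slc25a13 and Slc25a14 added) or 3 (Slc25a5 and Slc25a53 added). The causes were not tested. Members that were not called changed sign under some alternative in 8 cases (quiescent) and 6 cases (KO). The Slc25a25-205 share difference was -9.62 points on transcript TPM (p = 0.0571, exact permutation test) and -11.6 to -7.27 points with 1 library left out.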
